A study of Mus musculus with 6 samples.

Results

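Sorting progenitors from mouse bone marrow rests on a small set of surface proteins, and the RNA of their 10 genes was followed here among the 55487 genes of the count table. The genes were chosen by name as those of the proteins that define the gate of lineage-negative, Kit-positive, Sca-1-negative, CD34-negative and CD16/32-negative progenitors and its subsets. They are Kit, Ly6a (Sca-1), Cd34, Fcgr2b and Fcgr3 (CD32 and CD16), Il7r (CD127), Slamf1 (CD150), Cd48, Eng (CD105) and Ptprc (CD45). The study sorted megakaryocyte-erythroid progenitors from the marrow of wild-type C57BL/6 mice aged 8 weeks and sequenced their polyadenylated RNA in bulk, with red cell formation under a short fast as the question. The control group held 3 libraries labelled control and the fasted group 3 libraries labelled as fasted for 6 h. The labels name no further treatment or allele, and do not give the antibodies or gates of the sort or the number of mice behind a library. The p-values therefore measure the spread between these libraries only, which may in part be technical.

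Red cells, platelets and myeloid cells all come from marrow cells that carry Kit, the receptor of stem cell factor, and lack the antigens of mature lineages. Sca-1 marks the stem and multipotent cells within this pool. Among the Kit-positive, Sca-1-negative cells, CD34 and the low-affinity Fc gamma receptors separate common myeloid progenitors, granulocyte-monocyte progenitors, which are high for both, and megakaryocyte-erythroid progenitors, which are low for both. CD150, CD48 and CD105 divide these cells further, and CD127 marks early lymphoid progenitors. A gate acts on protein at the cell surface, while the values here are RNA of the cells that passed it.

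The CD16/32 gate is read by antibodies that bind the products of Fcgr2b and Fcgr3, an inhibitory and an activating receptor for IgG. The exons that encode their extracellular part are nearly the same, which matters here because reads from such exons may not be assigned to 1 gene. Exon 4 of the GENCODE M21 transcripts Fcgr2b-201 and Fcgr3-201 is given here as the most similar exon, from chr1:170966446-170966700 and chr1:171053939-171054193 of GRCm38, both on the minus strand. Capitals mark the 5 bases of 255 that differ (98.04% identity).
Fcgr2b: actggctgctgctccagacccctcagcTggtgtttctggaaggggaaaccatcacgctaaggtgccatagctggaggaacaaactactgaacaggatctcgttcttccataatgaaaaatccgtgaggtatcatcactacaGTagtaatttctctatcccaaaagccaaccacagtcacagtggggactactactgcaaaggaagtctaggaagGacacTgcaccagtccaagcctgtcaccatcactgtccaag
Fcgr3: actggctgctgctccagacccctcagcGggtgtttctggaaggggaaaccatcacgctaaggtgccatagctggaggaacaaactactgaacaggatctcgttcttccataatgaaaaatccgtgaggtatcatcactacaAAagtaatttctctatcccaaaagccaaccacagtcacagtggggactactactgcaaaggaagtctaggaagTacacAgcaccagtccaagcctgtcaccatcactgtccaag
Exon 3 of the same transcripts was 93.41% identical over 258 aligned bases. Of all 50-base words in Fcgr3 transcripts, 9.58% also occurred in another gene (Fcgr2b), and of all 100-base words 2.54%. For Fcgr2b the shares were 6.95% and 4.296%, and at 100 bases the main matches lay in Cplx2, Gm47409 and Rab3c. Ly6a, a member of a family of small GPI-anchored proteins, shared 18.97% of its 50-base words and 1.449% of its 100-base words, mainly with Ly6c1. Kit and Cd48 shared none, and the other 5 genes shared at most 2.376% at 50 bases. The read length and the treatment of reads that map to several places are not given in the sources used here, nor is the strand setting. Exons on the opposite strand overlapped 2.03% of the exonic bases of Cd34 (Gm16897), 2.68% of those of Fcgr2b (Gm38204) and 1.51% of those of Eng (Fpgs).
Fcgr2b (chr1:170958617-170976547) and Fcgr3 (chr1:171051174-171064935) lie close to Cd48 (chr1:171682009-171705258) and Slamf1 (chr1:171767127-171801184), and Cd34 (chr1:194938819-194961279) and Ptprc (chr1:138062861-138175708) share the chromosome. Kit (chr5:75574916-75656722), Eng (chr2:32646595-32682669), Ly6a (chr15:74994877-74998031) and Il7r (chr15:9505788-9530176) lie elsewhere. The deposited length of each gene equals its merged exons in the annotation, untranslated parts included.

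The libraries differed in depth and in background. Total counts were 22445970 to 30246110 in control and 12797144 to 18225191 in fasted libraries. Odorant and vomeronasal receptor genes, 1437 genes that blood cells do not use, still received 8.98 to 16.0 counts per kb, which over all annotated exons would make up 3.90% to 8.597% of control counts and 11.5% to 14.6% of fasted counts. The 2 ways of scaling between libraries used here differed in where they put the middle of the data. Levels are given as CPM, read counts per unit of library size, scaled by TMM factors over all 36508 tested genes (all-gene scaling), with a median log2 fold change of 0.32 over all tested genes. For the 10637 genes with a mean of at least 5 times the background, called clearly expressed here, it was -0.50. With TMM factors from the clearly expressed genes (reference scaling) the 2 medians were 0.82 and 0.02, and library totals alone gave 0.81 and -0.0042. Each direction is given under both scalings, and ratios between genes of 1 library, which need no scaling, follow. Of 12 markers of megakaryocyte-erythroid progenitors, 11 reached 5 times the background, among them Gata1, Klf1 and Gfi1b, and Zfpm1 did not. Pf4 alone of the 12 passed a test, as lower under both the all-gene (-1.36, edgeR adjusted p 0.0277) and the reference scaling (-0.86, edgeR adjusted p 0.0316). Their summed level was 4229 to 9637 CPM in control and 4462 to 6186 CPM in fasted libraries. The 12 granulocyte-monocyte markers all reached 5 times the background by their mean count too, Cebpa and Cebpe through the control libraries alone. Their sum spanned 4527 to 16680 CPM in control and 703 to 3143 CPM in fasted libraries.

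Per kilobase, the CD48 gene was the most abundant of the 10, and Slamf1 and Il7r had the lowest geometric means. In RPKM (all-gene scaling), the geometric means over the 6 libraries were 87.2 for Cd48, 45.3 for Cd34, 44.6 for Eng, 42.9 for Kit, 16.7 for Fcgr3, 10.4 for Ptprc, 6.16 for Fcgr2b, 3.89 for Ly6a, 2.63 for Slamf1 and 2.16 for Il7r. Cd48 lay above Cd34 in 6 of 6 libraries and Ptprc above Fcgr2b in 6 of 6. Cd34, Eng and Kit did not separate, since each was above the next in 4 of 6 libraries only, and Fcgr3 was above Ptprc in 4 of 6. Slamf1 and Il7r did not separate either, with Slamf1 above Il7r in 4 of 6 libraries. Cd34, whose protein a megakaryocyte-erythroid gate selects against, thus had RNA in the range of Kit, whose protein it selects for, at 21.2 to 197 times the background rate of its library. Fcgr3 stood at 7.83 to 96.4 times the background and Fcgr2b at 4.99 to 17.4 times. Ly6a was low, at 2.55 to 15.1 times the background. Slamf1 (2.41 to 8.39 times) and Il7r (2.52 to 4.06 times) had means below 5 times the background, so the background rate was a large part of their counts.

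**Figure D1:**
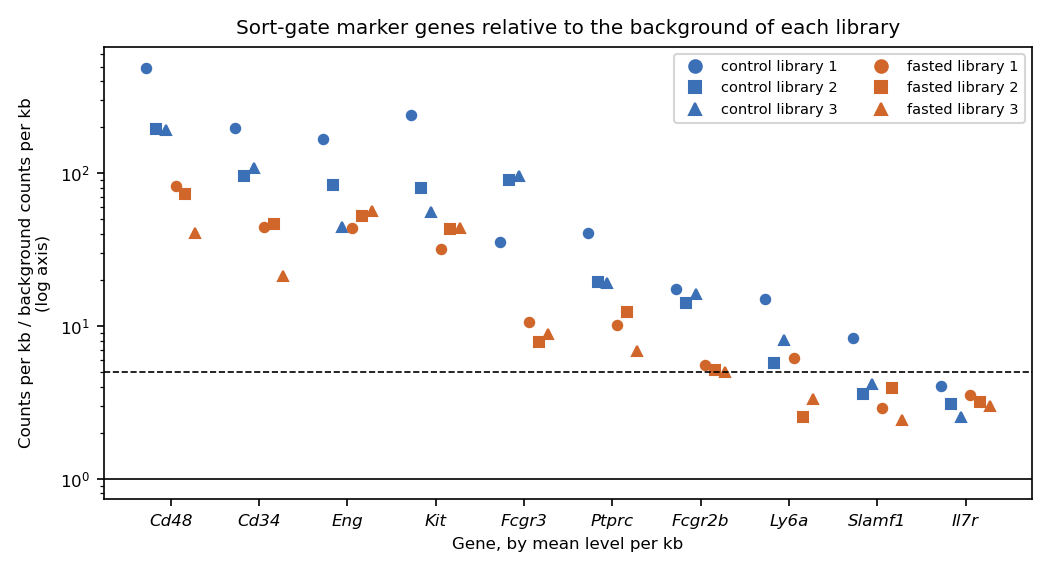
Counts per kb of each gene divided by the background counts per kb of the same library, on a log axis; points are libraries, the solid line is the background and the dashed line 5 times the background. Cd48, Cd34, Eng and Kit lie at 21.2 times or more in every library, while Slamf1 and Il7r lie at 8.39 times or less.

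In the comparison of fasted with control libraries, 4 of the 10 genes passed as lower under the all-gene scaling, Cd34, Fcgr2b, Fcgr3 and Cd48, and none as higher (edgeR's quasi-likelihood test, Benjamini-Hochberg adjusted p under 0.05 over all tested genes). Of all tested genes 4.97% passed, 3.82% as lower and 1.15% as higher. The 4 genes are clearly expressed, and of the 10637 genes of that class 1368 passed as lower. The median log2 fold change of the 10 was -0.79, against -0.50 for all clearly expressed genes. Under the reference scaling 1 gene passed as lower, Cd48, and 1 as higher, Il7r, against 14.4% of all tested genes (0.698% lower and 13.7% higher), and the median was -0.26. Library totals alone passed the same 2 genes against 12.6% of all tested genes (0.797% lower and 11.8% higher). With the clearly expressed genes alone scaled and tested, 0 of the 8 members among them passed, as did 0% of all genes in that fit. There, 2109 genes had an unadjusted p under 0.05. Leaving out 1 library moved the count of members that passed under the all-gene scaling between 0 (without fasted library 3) and 5 (without control library 3), with 1 without control library 2 or fasted library 1. In bulk RNA, fewer cells of a type and less RNA per cell cannot be told apart.

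**Figure D2:**
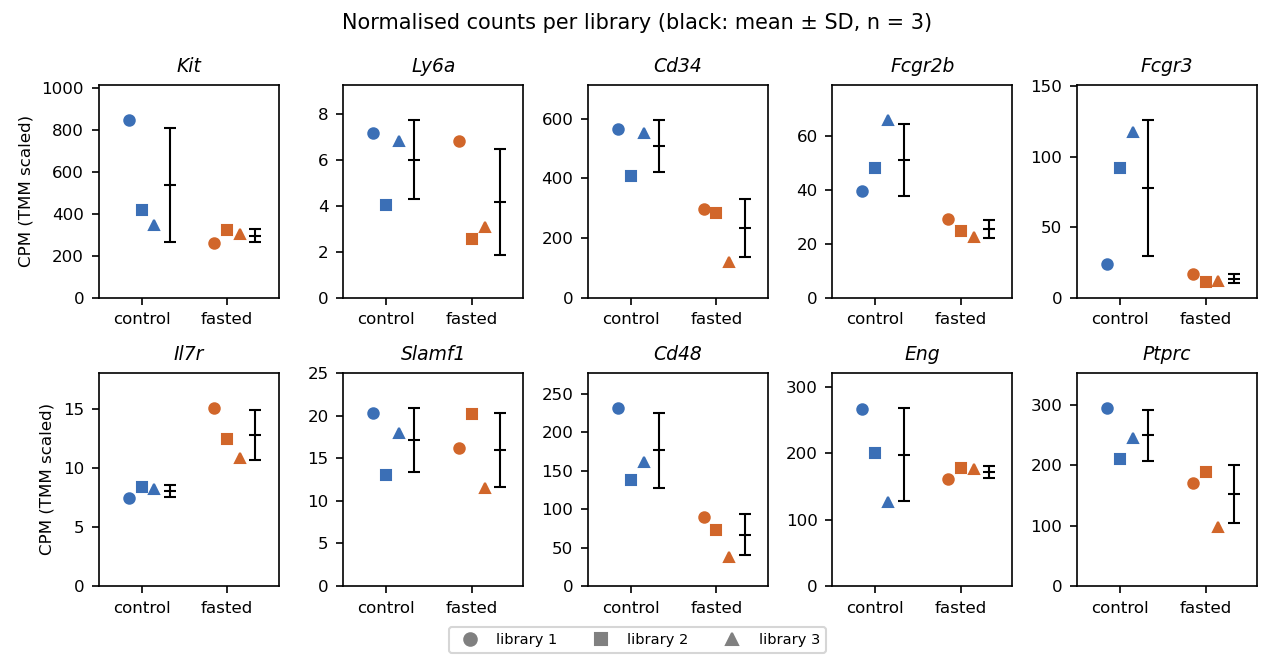
TMM-scaled CPM of the 10 genes in each library, with the mean ± SD of each group in black (n = 3). Cd48, Cd34, Fcgr2b, Fcgr3, Kit and Ptprc have every control library above every fasted library, and Il7r has the reverse.

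Kit, the tyrosine kinase receptor that every progenitor in this gate carries, had 847, 418 and 347 CPM in control libraries 1, 2 and 3 and 261, 321 and 304 CPM in fasted libraries 1, 2 and 3. Control library 1 stood far above the rest, and the groups did not overlap. The fitted log2 change was -0.86 (SE 0.28, edgeR adjusted p 0.065) under the all-gene scaling and -0.30 (SE 0.21, edgeR adjusted p 0.284) under the reference scaling. Without control library 1 the values were -0.38 and 0.04, so the size of the difference rested on that library. Ly6a, the gene of the antigen that separates stem cells from these progenitors, had 7.15, 4.02 and 6.82 CPM in control and 6.81, 2.56 and 3.09 CPM in fasted libraries. Its groups overlapped, and its fitted log2 change was -0.54 (SE 0.38, edgeR adjusted p 0.344) under the all-gene and -0.01 (SE 0.43) under the reference scaling.

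Cd34 encodes a sialomucin of early progenitors. It had 566, 409 and 551 CPM in control libraries 1, 2 and 3 and 298, 282 and 120.2 CPM in fasted libraries 1, 2 and 3, a mean of 509 ± 86.7 against 233 ± 98.4 (SD, n = 3 each). All control libraries lay above all fasted ones, and fasted library 3 was the lowest. It passed as lower under the all-gene scaling, at a fitted log2 change of -1.12 (SE 0.29, edgeR adjusted p 0.0401), and did not under the reference scaling, with -0.64 (SE 0.32, edgeR adjusted p 0.179). That call was lost on leaving out any 1 of control libraries 1 and 2 and fasted libraries 1 and 3 (edgeR adjusted p 0.0632 to 0.182 over these 4 fits).

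The Fc receptor genes passed as lower together under the all-gene scaling. Fcgr3, which encodes the activating receptor, had 24.2, 91.7 and 117 CPM in control libraries 1, 2 and 3 and 16.9, 11.3 and 11.9 CPM in fasted libraries. Control library 1 was near the fasted libraries, and control libraries 2 and 3 were several times higher. The fitted log2 change was -2.54 (SE 0.53, edgeR adjusted p 0.0438), and -2.10 (SE 0.76, edgeR adjusted p 0.116) under the reference scaling. The direction held under both, while the all-gene call was lost without control library 2 or any 1 fasted library (edgeR adjusted p 0.0836 to 0.196). Without control library 1 it was -2.98 (edgeR adjusted p 2.28e-10) under the all-gene and -2.56 (edgeR adjusted p 2.14e-05) under the reference scaling. Fcgr2b, the gene of the inhibitory receptor, had 39.8, 48.2 and 66.0 CPM in control and 29.3, 24.7 and 22.5 CPM in fasted libraries, with no overlap and a narrower spread. Its fitted log2 change was -1.01 (SE 0.25, edgeR adjusted p 0.0359), and -0.54 (SE 0.24, edgeR adjusted p 0.112) under the reference scaling. That call did not hold on leaving out any 1 of control library 2 and fasted libraries 1 and 3 (edgeR adjusted p 0.0739 to 0.181), and without control library 1 the gene passed under the reference scaling too (-0.77, edgeR adjusted p 0.0485).

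The ratio of Fcgr3 to Fcgr2b needs no scaling, and it was chosen after the values were seen. Per kilobase, Fcgr3 stood at 2.03, 6.35 and 5.93 times Fcgr2b in control libraries 1, 2 and 3 and at 1.93, 1.53 and 1.77 times in fasted libraries. The groups did not overlap, with a two-sided exact permutation p of 0.1, the smallest that 3 against 3 libraries allow, but control library 1 lay close to fasted library 1. With the background of each library taken off both genes, those libraries overlapped and the exact permutation p was 0.2. The granulocyte-monocyte markers, with Mpo the largest contributor, summed to 4527, 12129 and 16680 CPM in control libraries 1, 2 and 3 and to 3143, 2070.1 and 703 CPM in fasted libraries 1, 2 and 3, so control library 1 was the lowest control in this sum too. Csf3r did not have that order, with 122, 103 and 129 CPM in control libraries 1, 2 and 3. Elane, Irf8, Ly86 and Ly6c2 had it but overlapped between the groups. Of the 12, 4 passed as lower under the all-gene scaling: Csf3r, Cebpa, Igsf6 and Cebpe, with log2 fold changes of -1.45, -1.26, -2.73 and -2.75. Csf3r passed under the reference scaling too (-0.97). Every fasted library lay below 5 times the background for Cebpa (1.25 to 3.52 times) and Cebpe (2.07 to 4.36 times). The remaining 8, among them Mpo (3176, 7395 and 10270 CPM in control, 2022, 1344 and 398 CPM in fasted libraries), did not pass. Their part in the Fc receptor values was not tested.

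**Figure D3:**
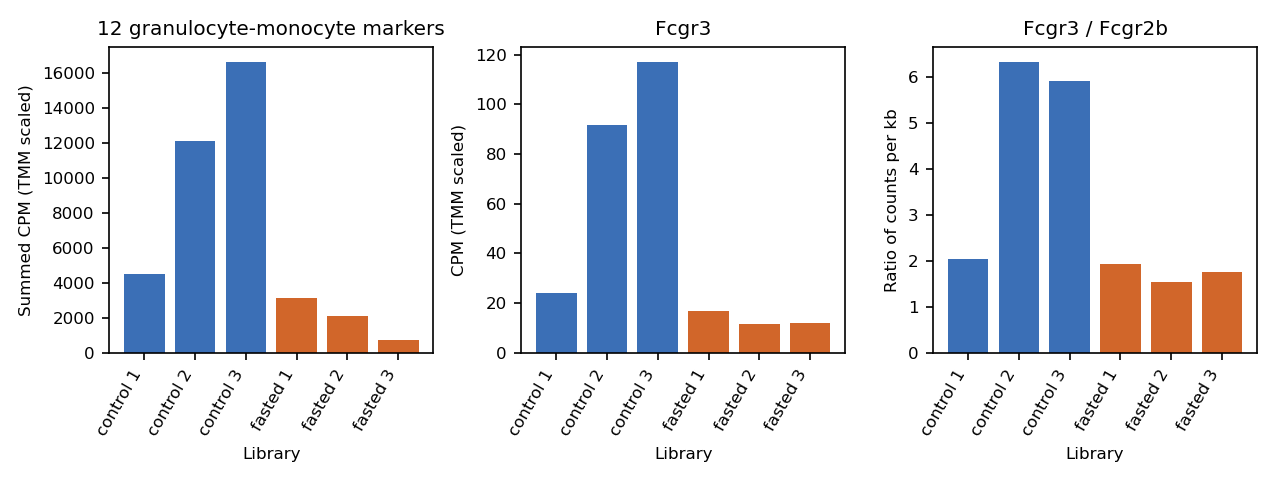
Bars give, for each library, the summed CPM of 12 granulocyte-monocyte markers (left), the CPM of Fcgr3 (middle) and the ratio of Fcgr3 to Fcgr2b counts per kb (right). Control libraries 2 and 3 are high in all 3 panels, and control library 1 is the lowest of the controls in each.

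Of the SLAM family genes, Cd48 passed as lower under both scalings and Slamf1 under neither. CD48 is a GPI-anchored protein that is used with CD150 to part stem cells from progenitors. Cd48 had 231, 137 and 161 CPM in control libraries 1, 2 and 3 and 89.2, 73.0 and 37.3 CPM in fasted libraries 1, 2 and 3, a mean of 176 ± 48.7 against 66.5 ± 26.6 (SD, n = 3 each). No library of one group reached the range of the other. The fitted log2 change was -1.41 (SE 0.29, edgeR adjusted p 0.0277) under the all-gene and -0.89 (SE 0.25, edgeR adjusted p 0.0435) under the reference scaling. Of the clearly expressed genes, 0.846% had a lower all-gene value than Cd48. The call was lost without fasted library 3 (edgeR adjusted p 0.181), without any 1 library under the reference scaling (edgeR adjusted p 0.0581 to 0.138), and in the fit of clearly expressed genes alone (edgeR adjusted p 0.166). Slamf1 encodes CD150, the other antigen of that pair. Slamf1 had 20.4, 13.0 and 18.0 CPM in control and 16.2, 20.2 and 11.5 CPM in fasted libraries. The groups overlapped, and its fitted log2 change was -0.10 (SE 0.28, edgeR adjusted p 0.822), turning to 0.40 (SE 0.27, edgeR adjusted p 0.253) under the reference scaling.

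Eng encodes endoglin, a co-receptor for TGF-beta family ligands that erythroid-committed progenitors carry. It had 267, 200.4 and 126 CPM in control libraries 1, 2 and 3 and 162, 178 and 177 CPM in fasted libraries. The fasted values lay within the wide range of the controls, where control library 3 was the lowest of all 6. Its fitted log2 change was -0.20 (SE 0.25, edgeR adjusted p 0.595) under the all-gene scaling and turned to 0.35 (SE 0.17, edgeR adjusted p 0.120) under the reference scaling. The summed megakaryocyte-erythroid markers, with Car2 and Car1 the largest contributors, had the same order in the controls. They summed to 9637, 8118 and 4229 CPM in control libraries 1, 2 and 3. Fasted libraries 1, 2 and 3 had 4462, 6046 and 6186 CPM. The part of these markers in the Eng values was not tested.

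Ptprc encodes the CD45 phosphatase of nearly all nucleated blood cells, and the counts do not separate the splice form that the B220 antibody of lineage cocktails binds. Ptprc had 294, 210.1 and 244 CPM in control and 170.4, 188 and 98.0 CPM in fasted libraries. The groups did not overlap under this scaling, and fasted library 3 was the lowest. Its fitted log2 change was -0.71 (SE 0.25, edgeR adjusted p 0.0796), and -0.21 (SE 0.18, edgeR adjusted p 0.350) under the reference scaling. Il7r, the interleukin-7 receptor gene, had 7.46, 8.40 and 8.25 CPM in control and 15.04, 12.4 and 10.8 CPM in fasted libraries, with no overlap. Its fitted log2 change was 0.67 (SE 0.27, edgeR adjusted p 0.121) under the all-gene and 1.17 (SE 0.30, edgeR adjusted p 0.0302) under the reference scaling, a call lost on leaving out any 1 of control libraries 1 and 2 and fasted libraries 1 and 3 (edgeR adjusted p 0.0573 to 0.138). The 25871 genes below 5 times the background, where Il7r lies, had medians of 0.53 and 1.03 in the same fits. Il7r was also taken with the background rate of each library subtracted, as CPM of the unscaled library total. Control libraries 1, 2 and 3 then had 4.24, 4.81 and 4.65 CPM, against 13.1, 8.97 and 9.26 CPM for fasted libraries. As a multiple of that background rate, Il7r overlapped between the groups. Its mean was 3.22 times (SD 0.78, n = 3) for the controls against 3.24 times (SD 0.27, n = 3) for the fasted group. The groups thus separated on subtraction of the background but not on division by it. The 8 B lineage markers summed to 202 to 273 CPM in control and 152 to 342 CPM in fasted libraries, so the groups overlapped, with fasted library 1 the highest, as for Il7r. None of the 8 T and NK markers reached 5 times the background. Their sums did not overlap, at 21.5 to 23.1 CPM in control and 35.4 to 41.9 CPM in fasted libraries. Of these 8, 5 passed as higher under the reference scaling, where 13.7% of all tested genes did. The 7 endothelial and stromal markers, all below 5 times the background too, did not overlap in sum either. They had 53.4 to 68.4 CPM in control and 71.0 to 104 CPM in fasted libraries, and 5 passed as higher in that fit. The part of these lists in the Il7r values was not tested.

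**Figure D4:**
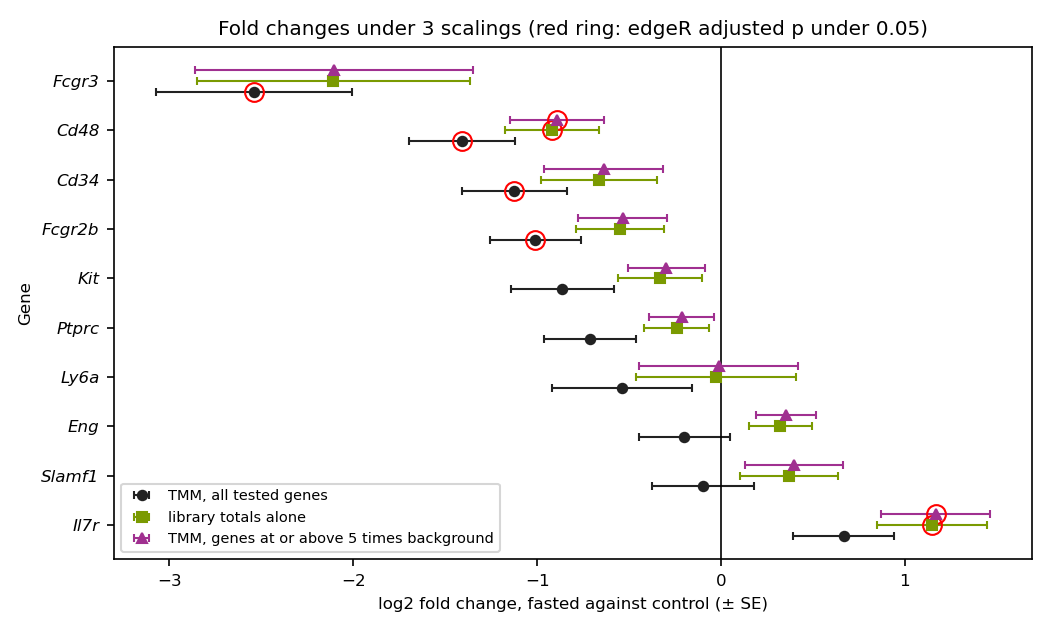
Log2 fold change of each gene, fasted against control, with its SE under 3 scalings between libraries; a red ring marks an edgeR adjusted p under 0.05. Cd48 is ringed under all 3, Il7r under library totals and the reference scaling, and Eng and Slamf1 change sign with the scaling.

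Counted over the 10 genes under the all-gene scaling, the groups did not overlap for 6 that were lower in fasted libraries (Kit, Cd34, Fcgr2b, Fcgr3, Cd48 and Ptprc), and for 1 that was higher (Il7r). Of all tested genes 15.1% were lower and 19.8% higher without overlap, and of the clearly expressed genes 47.6% were lower. The 6 genes were 6 of the 8 members in that class. Under the reference scaling Cd48 alone was lower without overlap (3.9% of all tested genes) and Il7r and Eng were higher (40.7% of all tested genes), Eng by the small margin of 195 CPM in fasted library 2 over 194 CPM in control library 1.

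Ratios to Kit within a library compare the genes without any scaling. Of 9 ratios, Il7r to Kit and Eng to Kit did not overlap between the groups, both higher in fasted libraries. Relative to Kit, 15.8% of clearly expressed genes were higher and 0.367% lower without overlap. Eng is in that class but Il7r is not, and the share among genes like Il7r, below 5 times the background, was not taken. Per kilobase, Eng stood at 0.693, 1.05 and 0.802 times Kit in control libraries 1, 2 and 3 and at 1.36, 1.22 and 1.28 times in fasted libraries. Eng was thus above Kit in all 3 fasted libraries and in control library 2 alone of the controls. The difference of mean log2 ratios was 0.62 (control SD 0.31, fasted SD 0.08, n = 3 each), and a two-sided exact permutation test gave p = 0.1, the smallest possible (adjusted over 9 ratios 0.45). Il7r differed by 1.41 (control SD 0.77, fasted SD 0.37) with the same p. The other 7 ratios overlapped between the groups.

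The ratios of the antigens that the gate selects against did not separate the groups. Cd34 stood at 0.817, 1.195 and 1.94 times Kit per kilobase in control and 1.39, 1.07 and 0.483 times in fasted libraries, a log2 difference of -0.46 (exact permutation p = 0.5, adjusted 0.75). Control library 3 was the highest and fasted library 3 the lowest. Fcgr3 reached 0.147, 1.13 and 1.74 times Kit in the controls and 0.333, 0.182 and 0.201 times Kit in the fasted libraries, so that control library 1 lay below every fasted library. Its log2 difference was -1.52 (exact permutation p = 0.4, adjusted 0.72), and it ranged from -2.60 without control library 1 to -0.82 without control library 3 on leaving out 1 library. Cd48 to Kit differed by -0.71 (exact permutation p = 0.3, adjusted 0.675), Slamf1 by 0.64 (exact permutation p = 0.2, adjusted 0.6), Fcgr2b by -0.23, Ly6a by 0.14 and Ptprc by 0.00, the last 3 with exact permutation p of 0.7 or above. With 3 libraries a group these tests cannot show that the ratios were alike.

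**Figure D5:**
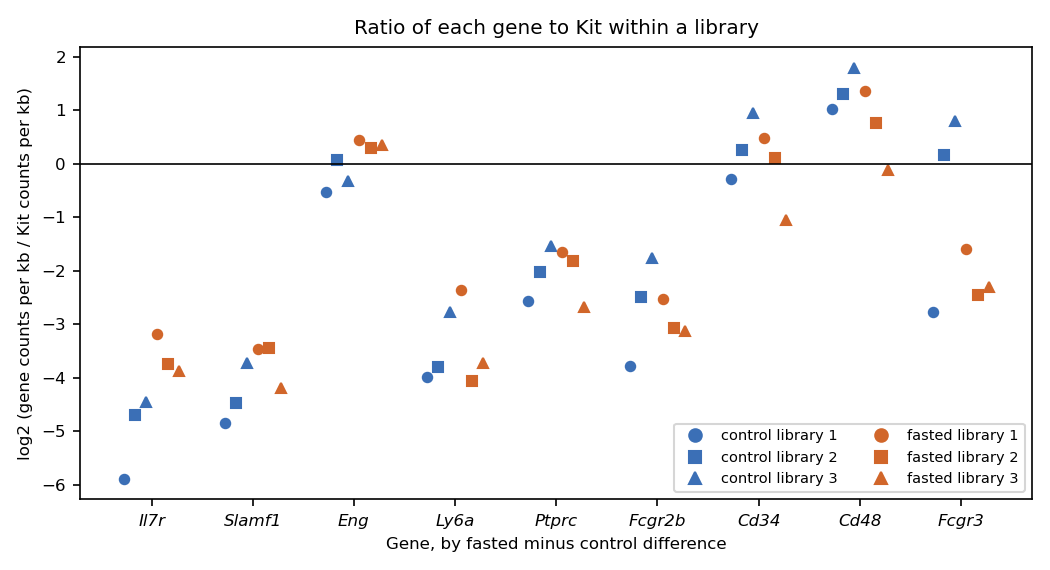
Log2 ratio of each gene's counts per kb to those of Kit in the same library; points are libraries and the line at 0 marks equal levels. Eng and Il7r have all fasted libraries above all control libraries, while for Fcgr3 control library 1 lies below the fasted libraries.

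Other genes of the gates were measured beside these 10, in 4 lists of 65 genes: further gate antigens, lineage cocktail antigens, signalling partners and ligands, and related receptors. Of the 65, 4 passed as lower and 0 as higher under the all-gene scaling (median log2 fold change -0.27), and 0 as lower and 13 as higher under the reference scaling, 11 of the 13 below 5 times the background. Among them were Cd9, a tetraspanin of megakaryocyte-biased cells, Ptpn6, the gene of the phosphatase SHP-1 that dampens Kit signals, and Ly6e, a relative of Ly6a. Cd9 averaged 87.4 ± 12.9 CPM in control and 40.8 ± 15.7 CPM in fasted libraries (SD, n = 3 each), with -1.10 as the log2 fold change (SE 0.27, edgeR adjusted p 0.0374). Ptpn6 and Ly6e had log2 fold changes of -0.88 and -0.86. Cd9, Ptpn6 and Ly6e did not pass under the reference scaling, where they had -0.60, -0.34 and -0.36.

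Among the 13 lineage cocktail antigens, 3 reached 5 times the background, Ly6c2 among them, and 10 did not, the T cell genes Cd3e, Cd3d, Cd3g, Cd4 and Cd8a among them. None passed under the all-gene scaling, and 6 passed as higher under the reference scaling, 5 of them among the 10. Ly6c2, Fcer1g, Inpp5d and Flt3 are named here after their values were seen. Ly6c2, also among the granulocyte-monocyte markers, which with Ly6g is read by the Gr-1 antibody, had 24.4, 243 and 244 CPM in control and 53.0, 28.1 and 10.6 CPM in fasted libraries, so control library 1 lay among the fasted ones. The partners had no other call under the all-gene scaling: Fcer1g, the signalling chain that Fcgr3 needs, had -0.91 (SE 0.30, edgeR adjusted p 0.0715) and Inpp5d, the phosphatase that acts downstream of Fcgr2b, had -0.33 (edgeR adjusted p 0.349). Flt3, a receptor of multipotent and lymphoid progenitors, had 0.29 (edgeR adjusted p 0.456) and passed as higher under the reference scaling, with 0.76 (SE 0.20, edgeR adjusted p 0.0339). Of the markers of other cells, 0 of 8 T and NK and 0 of 7 endothelial and stromal genes reached 5 times the background, and of 7 macrophage genes Cd68 alone did. Mast cells and basophils also carry Fc receptors and, in mast cells, Kit. Of 7 of their markers, 5 reached that level, and 4 passed as lower under the all-gene scaling. These were the proteases Cpa3 (-1.69) and Mcpt8 (-1.72), the IgE receptor chain Ms4a2 (-1.39) and the histamine enzyme Hdc (-0.95). Ms4a2 stood at 4.21 and 3.42 times the background in fasted libraries 2 and 3. Prss34 reached that level by its mean too but did not pass, with 0.26 (edgeR adjusted p 0.655). Fcer1a (0.08) and Gzmb (-0.89) neither reached it nor passed. The sum of the 7 was 234 to 373 CPM in control and 103 to 150 CPM in fasted libraries, and under the reference scaling Mcpt8 alone passed (-1.26). Of 10 stem and multipotent markers, Meis1 passed as lower (-1.03) under the all-gene scaling, and Mllt3 (0.83) and Flt3 as higher under the reference scaling. Their part in the values of Kit, Cd34 and the Fc receptor genes was not tested.

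Across the 6 libraries the members followed different orders. Over the 9003 clearly expressed genes with a mean of at least 5 CPM, those closest to Kit in log2(CPM + 1) were Lsm10, Coq9 and Tgs1 (Pearson r 0.999, 0.998 and 0.997), those closest to Cd34 were Elmo1, Pcgf5 and Fxyd5 (0.999, 0.999 and 0.998), and those closest to Fcgr3 were Atp6v0c-ps2, Cebpe and Ptgr1 (0.998, 0.996 and 0.995). Such values describe 6 points that share the difference in scaling between the groups, and are the highest of many. Within the members, Cd34 was closest to Ptprc (0.982) and Cd48 (0.975), and Fcgr3 to Fcgr2b (0.957), while Fcgr3 and Kit had 0.180. Fasted library 3 was the lowest of all 6 for Cd34, Cd48 and Ptprc, and control library 1 was the highest for these 3 and Kit but the lowest control for Fcgr3 and Fcgr2b.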

How the data were processed

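Polyadenylated RNA of 3 control and 3 fasted libraries was analysed from 1 table of raw counts per gene that the authors deposited with gene lengths. The submitters' processing notes name HISAT2 2.2.1, featureCounts 2.0.1 and GRCm38. The annotation, strand setting and read filters are not given in the sources used here. Columns were matched to libraries by description. Of 55487 gene IDs, 54435 matched GENCODE M21 with version, all with equal exon length. The table had 0 rows naming no gene. Total counts per library, given in the report, set the counting error, to which the spread between libraries and the choice of scaling add.

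Genes passed filterByExpr (36508), and edgeR 4.0.16 in R 4.3.3 fitted a quasi-likelihood model (robust, group only, TMM). On simulated counts with 200 genes changed 4-fold, 183 were called, and 12 unchanged genes. The simulation used a dispersion of 0.1, a shared profile for all libraries and as many genes raised as lowered. It held no difference in background between the groups, so it does not give the error rate or power in these libraries. SE is the log2 fold change over the square root of F. Ratios used counts plus 0.5, with exact permutation tests (scipy 1.17.1). Background is the count per kb over 1437 receptor genes, and a gene is at or above 5 times it by its mean count. Named genes were the 10 members, list genes called under the all-gene scaling (at most 5 a list), and markers that move with a result. The members, lists and tests were chosen with earlier results of these data known. Alternatives were other scalings, DESeq2 1.42.0, other filters, the replicate number as a block, and leaving out each library. Same-numbered libraries did not deviate together (r -0.18, 0.13 and -0.33), and control library 3 with fasted library 1 had r 0.33. With 3 libraries a group these values do not settle whether the numbers pair libraries. Some list genes are not reported here.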

Additional observations from a re-analysis of the deposited data

How the results depend on the processing

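The number of genes called over the whole table was 1813 under the all-gene scaling. It was 4587 with library totals (4296 higher), 2973 with RLE factors (301 higher), 5245 with the reference scaling (4990 higher), 0 with the clearly expressed genes alone (the restricted fit), 2849 with no filter beyond 1 count and 5301 with DESeq2 (481 higher). Without 1 library it ranged from 7 (without fasted library 3) to 5379 (without control library 3), and under the reference scaling from 0 to 9267 (the same libraries). Of the members, 4 were called, against 2 with library totals, 2 with the reference scaling, 0 in the restricted fit, and 6 with DESeq2. Leaving out 1 library gave 0 to 5, and 0 to 2 under the reference scaling. The replicate block, by numbers not known to pair libraries, gave 146 genes and 1 member (Cd48). With the reference scaling it gave 4507 genes and 2 members. That combination was chosen after seeing the data, as was leaving out libraries under the reference scaling.

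Cd34, Fcgr2b, Fcgr3, Cd48 and Ptprc kept a negative and Il7r a positive sign under every alternative that gave them a value. Eng turned to 0.32 with library totals, 0.35 with the reference scaling, 0.35 in the restricted fit and 0.38 with the replicate block at the reference scaling. Slamf1 turned to 0.37, 0.40 and 0.40 in the first, second and last of these, and neither Slamf1 nor Il7r, below 5 times the background, could be fitted in the restricted one. Without 1 library, over both scalings, the ranges were -0.45 to 0.50 for Eng, -0.38 to 0.54 for Slamf1, -1.11 to 0.042 for Kit and -1.10 to 0.25 for Ly6a. For the ratios to Kit, the block gives the same differences by construction, so it could not turn a sign. Of these ratios, subtracting the background turned Ly6a to -0.14 and Ptprc to -0.080. Leaving out 1 library gave -0.37 to 0.52 for Ly6a, -0.26 to 0.31 for Ptprc and -0.78 to 0.23 for Fcgr2b. The cause of these moves was not tested. For Il7r, Slamf1 and Ly6a the distance to the background limits what the counts show.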
